A study of Homo sapiens with 45 samples.

Results

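Breast cancer lines of the basal B class that were kept in Leibovitz's L-15 medium were set against basal B lines kept in RPMI 1640. The L-15 side held MDA-MB-157, MDA-MB-231 and MDA-MB-436, and the RPMI side held BT-549, HCC1395 and HCC38. Each side had 3 lines and 9 libraries, so 18 of the 45 libraries of the series and 6 of its 15 lines were used. The lines were chosen by name and medium, and the reads of the 3 libraries of a line were added up, because the line and not the library is the independent unit. All 6 lines were untreated wild-type human cancer lines, each a single line standing for its own donor tumour. All were grown with 10% serum and antibiotics in a humidified incubator with carbon dioxide, and the serum of the L-15 lines came from another supplier. MDA-MB-436 also received 10 µg/mL insulin and glutathione, and BT-549 received 2 µg/mL insulin. The remaining 4 lines had 0 µg/mL insulin added. The class name basal B comes from common use of these lines and is not in the labels.

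Medium and line origin coincide in this design. The L-15 lines come from a collection of lines derived from pleural effusions, while BT-549, HCC1395 and HCC38 were established from breast tumours, so a difference between the sides cannot be told apart as one of medium, of origin or of the line itself. L-15 is a medium with galactose and pyruvate in place of glucose, buffered by amino acids for use in air, and RPMI 1640 is a bicarbonate-buffered medium with glucose. Galactose enters glycolysis through the Leloir pathway, more slowly than glucose. The paralogous factors MondoA and ChREBP, encoded by MLXIP and MLXIPL, sense glucose phosphates together with their partner MLX and switch on TXNIP and ARRDC4, whose products curb glucose uptake. Basal B lines are known as mesenchymal-like lines with little epithelial gene expression.

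The 9 L-15 libraries held 4308892 to 6565166 counts (median 5502463) and the 9 RPMI libraries 5931618 to 10206100 (median 6657266). Although shallower, the L-15 libraries showed 32869 to 39596 genes with at least 1 count, against 28872 to 38132 in the RPMI libraries. The TMM scaling factors, which correct for composition, were 1.03 to 1.17 in the L-15 lines and 0.871 to 0.966 in the RPMI lines, so the scaling itself moved with the groups. Runs 1 and 2 held MDA-MB-231 and HCC38, while MDA-MB-157, MDA-MB-436, BT-549 and HCC1395 were read in runs 3 to 5, so both sets of runs held as many L-15 as RPMI lines. Separate cultures are not stated for the libraries of a line, so their spread may be technical. Across genes, Pearson's r of log2 CPM, the counts of a gene scaled to a common library size of 1000000, lay between 0.868 and 0.894 for pairs of L-15 lines, between 0.869 and 0.886 for pairs of RPMI lines and between 0.854 and 0.895 for mixed pairs, and these ranges overlap.

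The class label was checked against markers. VIM, the intermediate filament of mesenchymal cells, stood at 2818, 1570 and 1635 CPM in MDA-MB-157, MDA-MB-231 and MDA-MB-436, against 2845, 3191 and 524 CPM in BT-549, HCC1395 and HCC38. This order of lines is kept below wherever 3 values are given for a side. CDH1, which encodes E-cadherin, stood at 1.52, 1.07 and 1.33 CPM in the L-15 lines, against 1.13, 0.444 and 281 CPM in the RPMI lines. HCC38 therefore stands apart from the other 5 lines in CDH1. It was also lowest for ZEB1 and ZEB2, mesenchymal factors picked out after their values had been seen. Library means of ZEB1 were 58.2, 127.6 and 73.3 CPM in the L-15 lines, against 184.2, 107.4 and 6.51 CPM in the RPMI lines. For ZEB2 they were 70.8, 22.5 and 119.1 CPM, against 47.9, 37.3 and 3.28 CPM. TWIST1 was lower in MDA-MB-231, and FN1 in MDA-MB-436, BT-549 and HCC1395, than in HCC38. By CDH1, ZEB1 and ZEB2, HCC38 was the least mesenchymal-like line. The summed CPM of the 18 tested epithelial genes, as the mean of the libraries of a line, was 356, 2105 and 203 in the L-15 lines, against 116, 306 and 6630 in the RPMI lines. HCC38 was highest and MDA-MB-231 second, with KRT19 at 562 CPM and KRT7 at 337 CPM in MDA-MB-231, while the other 4 lines were low. Both keratins mark simple epithelia. The median log2 fold change of the epithelial list was -1.70 over all 6 lines, -4.20 without MDA-MB-231 and 1.79 without HCC38, and in 0 of the 18 genes were the groups free of overlap.

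No gene passed the comparison of the 6 lines. Of 20537 genes tested with edgeR's quasi-likelihood test, 0 were higher and 0 lower in the L-15 lines (0% in each direction, Benjamini-Hochberg adjusted, with at least 1 log2 unit), and the smallest adjusted p was 0.526. At an unadjusted p under 0.05, 885 genes (4.31%) were higher and 840 (4.09%) lower. The common coefficient of variation between lines of a side was 0.665. With 3 lines a side an exact permutation test of 1 gene cannot go below 0.1, so single genes are described by their level in every line and by whether the sides overlap. In bulk RNA, fewer cells expressing a gene and less RNA per cell cannot be told apart. Groups are called apart where each of the 3 L-15 lines was above, or below, each of the 3 RPMI lines on the TMM-scaled CPM of line sums. The L-15 lines were apart and higher for 1634 genes (7.96%) and apart and lower for 1569 genes (7.64%). Among 14713 protein-coding genes these shares were 6.91% and 8.81%. They depend on scaling, and with TMM factors taken from genes with at least 5 CPM in every line, under which the median gene lay at 0.26 log2 units in place of 0.0053, 12.2% of genes were apart and higher and 4.33% apart and lower. With DESeq2 size factors the shares were 7.78% and 7.85%.

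DESeq2 on the same sums called 127 genes higher (0.632%) and 93 lower (0.463%) of 20092. A fit of the 18 libraries with the line as a random block and the replicate number as a block called 3 genes higher and 0 lower, and the same fit without the replicate block called 14 and 20. The 3 genes were CXorf38 (adjusted p = 0.000355, limma-voom), the actin regulator CDC42EP3 (adjusted p = 0.0154, limma-voom) and the secreted pattern recognition protein PTX3 (adjusted p = 0.0417, limma-voom). The last 2 were picked out after their values had been seen. CDC42EP3 stood at 113, 132 and 88.3 CPM in the L-15 lines, against 30.6, 29.4 and 21.9 CPM in the RPMI lines. PTX3 stood at 45.5, 210.02 and 138 CPM in the L-15 lines, against 2.30, 9.99 and 15.7 CPM in the RPMI lines. For both genes the lowest L-15 line lay well above the highest RPMI line.

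The 15 genes with the smallest p among those apart and higher had log2 fold changes of 3.20 to 7.05. CXorf38, an open reading frame on chromosome X (GRCh38, 40626921 to 40647554) with no established role, had the smallest p of all genes tested. It stood at 166, 139.9 and 168 CPM in the L-15 lines, against 18.5, 17.3 and 15.8 CPM in the RPMI lines. The means were 158 ± 15.9 CPM in the L-15 lines and 17.2 ± 1.32 CPM in the RPMI lines (SD, n = 3 lines each), a log2 fold change of 3.20 ± 0.41 (SE). The spread within each side was narrow beside the gap between them. LGALS3BP, a secreted glycoprotein that binds galectins, stood at 205, 165 and 52.5 CPM in the L-15 lines, against 11.5, 3.33 and 4.69 CPM in the RPMI lines. NDRG1, a gene induced by hypoxia and other stresses, stood at 252, 343 and 80.2 CPM in the L-15 lines, against 11.8, 3.02 and 13.7 CPM in the RPMI lines. For LGALS3BP and NDRG1, MDA-MB-436 was the lowest of the 3 L-15 lines and still several times above every RPMI line.

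SHC3, an adaptor of receptor tyrosine kinases, stood at 8.91, 58.4 and 65.6 CPM in the L-15 lines, against 1.22, 0.222 and 0.866 CPM in the RPMI lines. LBH, a transcription cofactor of the Wnt pathway in the mammary gland, stood at 67.1, 14.3 and 12.8 CPM in the L-15 lines, against 0.564, 0.444 and 1.78 CPM in the RPMI lines. APOL1, a serum apolipoprotein that kills trypanosomes, stood at 37.4, 13.4 and 11.2 CPM in the L-15 lines, against 0.517, 0.488 and 1.48 CPM in the RPMI lines. Each was near the detection limit in the RPMI lines and clearly expressed in the L-15 lines, with MDA-MB-157 highest for LBH and APOL1 and lowest for SHC3. The initiator caspase CASP10, at 6.39, 8.71 and 9.77 CPM in the L-15 lines against 0.847, 0.399 and 0.662 CPM in the RPMI lines, was among the more even. ARNT2, a partner of bHLH-PAS factors, stood at 11.8, 14.1 and 10.1 CPM in the L-15 lines, against 0.941, 0.666 and 1.63 CPM in the RPMI lines. The thrombin receptor family gene F2RL2, SPOCD1, the chemokine CCL26, C11orf96, FAM106A and the noncoding RNAs HRAT92 and AC006369.1 completed the 15. They lay between 0.883 and 14.5 CPM in the L-15 lines and between 0 and 0.815 CPM in the RPMI lines.

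**Figure D1:**
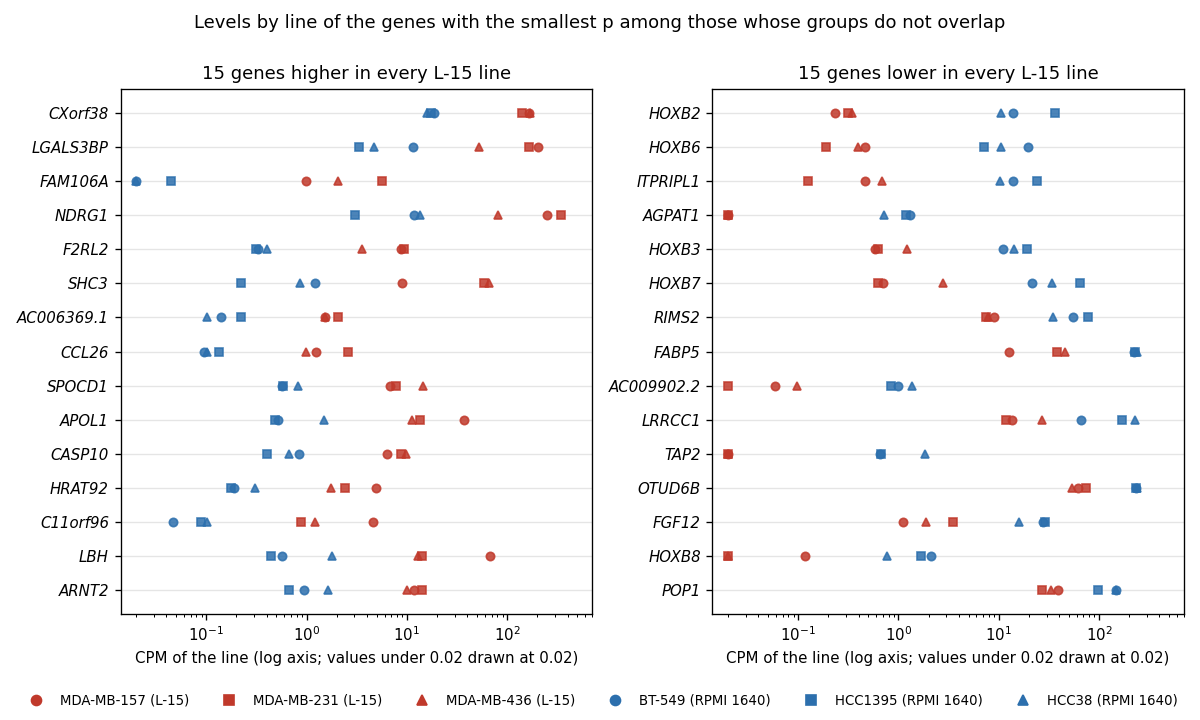
Level of 30 genes in each line, as CPM on a log axis, for the 15 genes apart and higher (left) and the 15 apart and lower (right) with the smallest p; red symbols are L-15 lines, blue symbols RPMI 1640 lines. CXorf38 shows 139.9 to 168 CPM in the L-15 lines and 15.8 to 18.5 CPM in the RPMI lines, and HOXB2 shows 0.235 to 0.344 CPM in the L-15 lines and 10.5 to 36.7 CPM in the RPMI lines.

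Genes of the HOXB cluster led the other direction. HOX genes encode homeodomain factors that lie in 4 clusters and keep the positional identity of a cell. HOXB2 (chromosome 17, 48540894 to 48544989) stood at 0.235, 0.316 and 0.344 CPM in the L-15 lines, against 14.0, 36.7 and 10.5 CPM in the RPMI lines, a log2 fold change of -6.07 ± 0.84 (SE). HOXB6 stood at 0.469, 0.189 and 0.393 CPM in the L-15 lines, against 19.6, 7.19 and 10.6 CPM in the RPMI lines. HOXB3 stood at 0.586, 0.631 and 1.23 CPM in the L-15 lines, against 11.1, 19.04 and 14.1 CPM in the RPMI lines. The sides were far apart for each of these genes, with no L-15 line near an RPMI line. HOXB7, at 0.704, 0.631 and 2.80 CPM in the L-15 lines against 21.6, 64.1 and 33.8 CPM in the RPMI lines, followed the same order of sides. Of 8 HOXB genes tested, 6 were apart and lower in the L-15 lines, beside 3 of 7 HOXC, 1 of 9 HOXA and 0 of 1 HOXD genes. Over all genes 7.64% were apart and lower, so the HOXA count is near that share. The exceptions within HOXB were HOXB9 and HOXB13, which overlapped. Over the 25 tested HOX genes the median log2 fold change was -1.69, against 0.0053 over all genes. Of the 25, 10 were apart and lower (40%, against 7.64% of all genes) and 0 apart and higher. DESeq2 called 7 of the 25 lower, against 0.463% of all genes. HOXA9, at 0.117, 0.126 and 0.344 CPM in the L-15 lines against 4.23, 12.9 and 0.611 CPM in the RPMI lines, was nearly as low in HCC38 as in MDA-MB-436. As each line was left out, the list median ranged from -2.67 to -1.11. With TMM from genes at 5 CPM, 9 of the 25 were apart and lower, against 4.33% of all genes.

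Chromosome 8 gave 6 of the 15 genes with the smallest p among those apart and lower. FABP5, which carries fatty acids in the cytosol, stood at 12.7, 38.4 and 45.7 CPM in the L-15 lines, against 221, 228 and 241 CPM in the RPMI lines. OTUD6B, a deubiquitinase, stood at 61.4, 74.8 and 54.3 CPM in the L-15 lines, against 236, 236 and 238 CPM in the RPMI lines. POP1, a subunit of RNase P and RNase MRP, stood at 38.6, 26.8 and 32.9 CPM in the L-15 lines, against 148, 98.4 and 147 CPM in the RPMI lines. Each was well expressed in all 6 lines, and OTUD6B was almost equal in the 3 RPMI lines. The centrosomal gene LRRCC1, the vesicle release gene RIMS2 and the noncoding AC009902.2 are the other 3. AC009902.2 (81279871 to 81281446) overlaps FABP5 (81280363 to 81284777). As the strand setting is not given, they may share reads and are not separate loci. The share of chromosome 8 among all genes tested was not counted, so 6 of 15 stands without it. FABP5, OTUD6B, LRRCC1 and POP1 lie between 80000001 and 100000000, a stretch with 81 of the 14713 protein-coding genes tested. Besides these and the HOXB genes were FGF12, ITPRIPL1, AGPAT1 and TAP2. AGPAT1, an enzyme of phosphatidic acid synthesis, and TAP2, a peptide transporter of antigen presentation, had 0 counts in the 9 L-15 libraries. Their RPMI libraries held 69 and 65 counts. With a floor of 3 counts over the group they were at least 16.1-fold and 15.2-fold lower in the L-15 lines, a limit that covers counting error only. Both lie in the HLA region of chromosome 6, whose near-identical haplotype copies in the genome build can split reads, and at about 1 CPM both values are uncertain.

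Of the genes that respond to glucose phosphates, 3 were higher in every L-15 line than in any RPMI line. TXNIP, an arrestin-family inhibitor of glucose uptake, stood at 434, 405 and 1170 CPM in the L-15 lines, against 84.9, 0.178 and 22.9 CPM in the RPMI lines, a log2 fold change of 4.22 ± 1.48 (SE). In single libraries it ranged from 293 to 1345 CPM on the L-15 side and from 0 to 114 CPM on the RPMI side. ARRDC4, its relative with the same function, stood at 47.0, 13.6 and 126 CPM in the L-15 lines, against 0.705, 4.35 and 10.95 CPM in the RPMI lines, a log2 fold change of 3.54 ± 1.09 (SE). MLXIPL itself, which encodes ChREBP, stood at 1.70, 0.757 and 0.884 CPM in the L-15 lines, against 0.047, 0.178 and 0.102 CPM in the RPMI lines. In single libraries MLXIPL overlapped, at 0 to 1.95 CPM in MDA-MB-231 and 0 to 0.478 CPM in HCC1395, so its level in MDA-MB-231 rests mainly on 1 of 3 libraries. On the line sums all 3 genes were apart and higher, MDA-MB-436 had the highest TXNIP and ARRDC4 and MDA-MB-157 the highest MLXIPL. They make 3 of 9 tested members of the list (33.3%, against 7.96% of all genes). The median log2 fold change of the list was 0.84. The other 6 members, MLX, MLXIP, KLF10, KLF11, PFKFB3 and ACACB, overlapped. DESeq2 called 2 of the 9 higher (MLXIPL and ARRDC4), against 0.632% of all genes. MLX stood at 50.5, 65.3 and 46.5 CPM in the L-15 lines, against 50.3, 38.0 and 74.1 CPM in the RPMI lines.

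The promoters of TXNIP, ARRDC4 and the hexosamine gene GFPT1 are shown because the factors named above bind paired E-box-like sites. A pair of CACGNG boxes with NNNNN between them, and the single box CACGTG, were searched on both strands in the 250 bases before each start in the RefSeq promoter table (GRCh38.p14). The pair was present in 16 of 35116 promoters (0.0456%) and CACGTG in 2228 (6.345%). Capitals mark a match, and the matches shown do not overlap another match. All 3 genes had an entry, 2 starts in the case of TXNIP, of which the one with a match is shown. TXNIP (chr1:145996580-145996829, minus strand) holds the pair 72 to 88 bases before its start, GFPT1 (chr2:69387228-69387477, minus strand) holds it on the opposite strand 90 to 106 bases before its start, and ARRDC4 (chr15:97960453-97960702, plus strand) holds CACGTG 205 to 210 bases before its start.
TXNIP: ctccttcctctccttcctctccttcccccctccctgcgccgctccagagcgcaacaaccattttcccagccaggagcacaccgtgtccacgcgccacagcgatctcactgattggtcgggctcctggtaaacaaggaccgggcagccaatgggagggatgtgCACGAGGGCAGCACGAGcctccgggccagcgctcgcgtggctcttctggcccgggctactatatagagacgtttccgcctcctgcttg
GFPT1: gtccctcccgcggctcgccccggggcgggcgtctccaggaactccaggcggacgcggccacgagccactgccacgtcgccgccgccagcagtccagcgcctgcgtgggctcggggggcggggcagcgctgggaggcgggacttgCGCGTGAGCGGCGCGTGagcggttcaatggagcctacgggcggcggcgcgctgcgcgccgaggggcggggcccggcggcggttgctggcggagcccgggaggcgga
ARRDC4: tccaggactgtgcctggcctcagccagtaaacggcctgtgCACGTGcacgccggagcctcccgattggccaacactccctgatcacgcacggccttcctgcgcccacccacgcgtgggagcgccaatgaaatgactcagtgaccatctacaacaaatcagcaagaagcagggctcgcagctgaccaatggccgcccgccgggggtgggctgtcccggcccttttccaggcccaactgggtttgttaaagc
A match is a run of letters and not a measured binding site.

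Of the 16 genes with the pair, 14 were tested, and their median log2 fold change was 0.10. TXNIP and GFPT1 were apart and higher, RAN was apart and lower, and the other 11 overlapped. Over all genes 7.96% were apart and higher and 7.64% apart and lower. GFPT1, the rate-limiting enzyme of hexosamine synthesis, stood at 357, 426 and 610 CPM in the L-15 lines, against 86.4, 224 and 310 CPM in the RPMI lines. RAN, the GTPase of nuclear transport, stood at 251, 335 and 336 CPM in the L-15 lines, against 508, 824 and 639 CPM in the RPMI lines. In the hexosamine list GFPT1 and PGM3 were the 2 of 16 apart and higher (12.5%, against 7.96% of all genes). With TMM from genes at 5 CPM, 2 of 16 were also apart and higher, against 12.2% of all genes. PGM3, a sugar phosphate mutase of that route, stood at 360, 346 and 445 CPM in the L-15 lines, against 222, 193 and 72.8 CPM in the RPMI lines. GNPNAT1, another member, overlapped, with a log2 fold change of -0.97. It stood at 48.0, 134 and 62.7 CPM in the L-15 lines, against 142, 132 and 207 CPM in the RPMI lines.

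The galactose enzymes GALK1 and GALT overlapped between the sides. GALK1, the first kinase of the Leloir pathway, stood at 32.7, 17.9 and 10.3 CPM in the L-15 lines, against 8.04, 17.9 and 12.6 CPM in the RPMI lines. GALT, the uridylyltransferase, stood at 12.4, 18.5 and 14.6 CPM in the L-15 lines, against 17.4, 12.7 and 7.18 CPM in the RPMI lines. Of 9 Leloir genes only PGM1, which joins the pathway to glycolysis, was apart and higher (11.1%, against 7.96% of all genes). It stood at 98.5, 198 and 133 CPM in the L-15 lines, against 92.5, 59.1 and 29.4 CPM in the RPMI lines. The gap between MDA-MB-157 and BT-549 was a few CPM. Of 10 glucose transporter genes, SLC2A3 and SLC2A4 were apart and higher (20%, against 7.96% of all genes). SLC2A4 stood at 1.70, 0.694 and 1.08 CPM in the L-15 lines, against 0.658, 0.666 and 0.102 CPM in the RPMI lines. At such low levels MDA-MB-231 was barely above HCC1395 and BT-549. SLC2A3, the neuronal-type transporter, stood at 68.7, 140.1 and 134 CPM in the L-15 lines, against 24.1, 67.8 and 1.27 CPM in the RPMI lines, with MDA-MB-157 and HCC1395 nearly touching. The main transporter SLC2A1 stood at 88.8, 317 and 36.5 CPM in the L-15 lines, against 31.0, 39.2 and 238 CPM in the RPMI lines.

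Pyruvate dehydrogenase kinase PDK4, which shuts pyruvate out of the TCA cycle, stood at 108, 11.8 and 10.3 CPM in the L-15 lines, against 3.53, 1.46 and 1.99 CPM in the RPMI lines. The groups were apart, and MDA-MB-157 carried most of the difference. Glycolysis genes had a median log2 fold change of -0.06 over 17 tested, with 1 apart and higher and 3 apart and lower. Under TMM from genes at 5 CPM the median was 0.19, with 2 apart and higher and 1 apart and lower, so the balance turned with the scaling. Under that scaling 12.2% of all genes were apart and higher and 4.33% apart and lower. PKM, pyruvate kinase, stood at 1305, 1119 and 641 CPM in the L-15 lines, against 1992, 1885 and 1964 CPM in the RPMI lines. The brain-type aldolase gene ALDOC, at 24.0, 24.4 and 22.1 CPM in the L-15 lines against 11.4, 0.533 and 1.27 CPM in the RPMI lines, was the one apart and higher. Among 34 nuclear complex I genes the median was -0.16, with 1 apart and higher and 2 apart and lower. These shares, 2.94% and 5.88%, were below those of all genes. Under TMM from genes at 5 CPM the median was 0.08, with 1 in each direction. All 13 mRNAs of the mitochondrial genome had positive log2 fold changes with a median of 0.54, and in 0 of them were the groups apart. The median was 0.13 without HCC1395 and 1.68 without BT-549, and 1.45 in the lines of runs 1 and 2 against 0.14 in those of runs 3 to 5. Mitochondrial transcripts took 0.143% to 0.647% of the counts of L-15 libraries and 0.0507% to 0.664% of those of RPMI libraries, and their part in this was not tested.

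**Figure D2:**
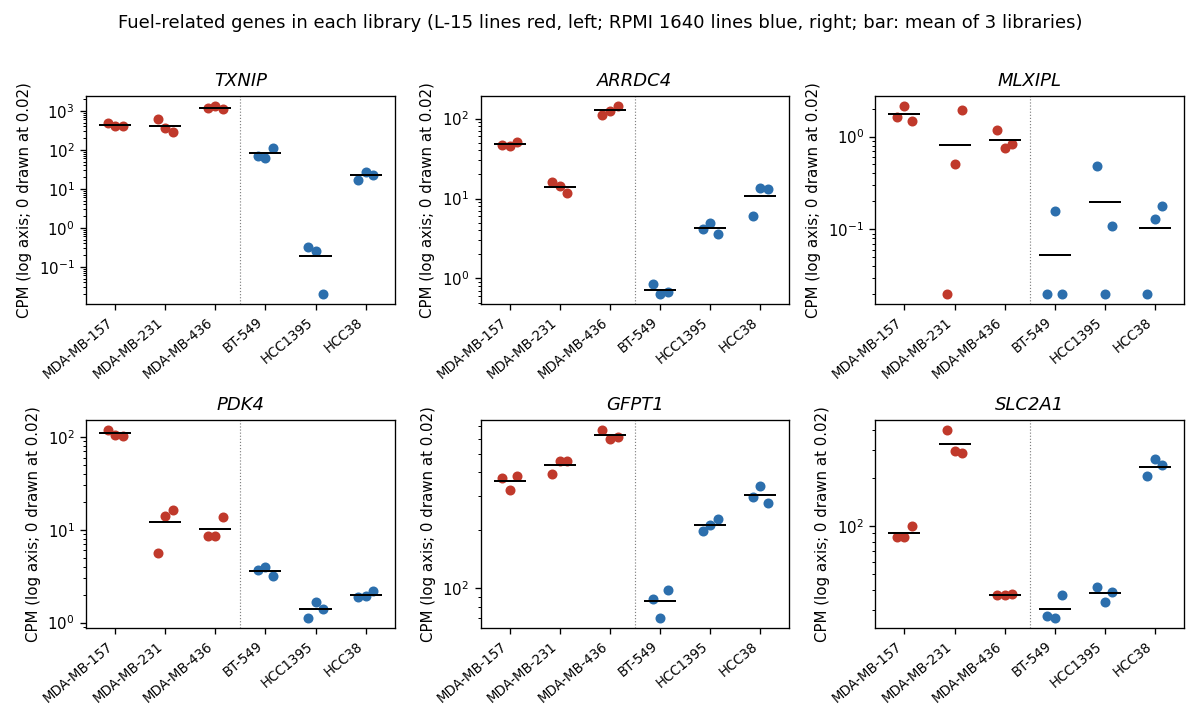
CPM on a log axis of 6 genes in each of the 18 libraries (points), with the mean of the 3 libraries of a line as a bar; L-15 lines in red on the left, RPMI 1640 lines in blue on the right, and 0 drawn at 0.02. TXNIP shows 293 to 1345 CPM in the L-15 libraries and 0 to 114 CPM in the RPMI libraries, while SLC2A1 overlaps, with library means of 37.3 CPM in MDA-MB-436 and 236 CPM in HCC38.

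Most replication and mitosis genes stood lower in each L-15 line than in any RPMI line. Of 24 tested genes of this list, 17 were apart and lower (70.8%) and 0 apart and higher, with a median log2 fold change of -1.07, against 7.64% apart and lower and a median of 0.0053 over all genes. PCNA, the sliding clamp of DNA polymerase, stood at 133, 209.7 and 176 CPM in the L-15 lines, against 451, 439 and 1076 CPM in the RPMI lines. MCM5, a subunit of the replicative helicase, stood at 51.1, 59.8 and 50.4 CPM in the L-15 lines, against 125, 148 and 149 CPM in the RPMI lines. CCNE2, a cyclin of S phase entry on chromosome 8, stood at 67.3, 41.1 and 33.1 CPM in the L-15 lines, against 309.6, 130.3 and 157 CPM in the RPMI lines. Of 6 MCM helicase genes 5 were apart and lower, MCM3 being the one that overlapped. MKI67, the proliferation antigen Ki-67, stood at 82.7, 80.3 and 96.1 CPM in the L-15 lines, against 164, 136 and 125 CPM in the RPMI lines. The mitotic cyclin CCNB1 stood at 232, 454 and 549.7 CPM in the L-15 lines, against 1070, 939 and 553 CPM in the RPMI lines, with MDA-MB-436 and HCC38 only a few CPM apart.

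The other members overlapped and included TOP2A, RRM2, AURKA, AURKB and BUB1. CCNE1, the sister of CCNE2, was the only member with a positive log2 fold change, at 113, 13.9 and 29.6 CPM in the L-15 lines against 31.9, 30.4 and 38.9 CPM in the RPMI lines. MDA-MB-157 was the lowest of the 6 lines for 12 of the 24 genes, MDA-MB-231 for 8 and MDA-MB-436 for 4. DESeq2 called 0 of the 24, with a smallest adjusted p of 0.0723, and edgeR called 0, of which 11 were lower at an unadjusted p under 0.05. As each line was left out, the list median ranged from -1.37 to -0.93. It was -1.40 for the pair MDA-MB-231 and HCC38 of runs 1 and 2 and -0.90 for the 4 lines of runs 3 to 5. With TMM from genes at 5 CPM, 13 of the 24 were apart and lower, against 4.33% of all genes, and the median was -0.84.

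**Figure D3:**
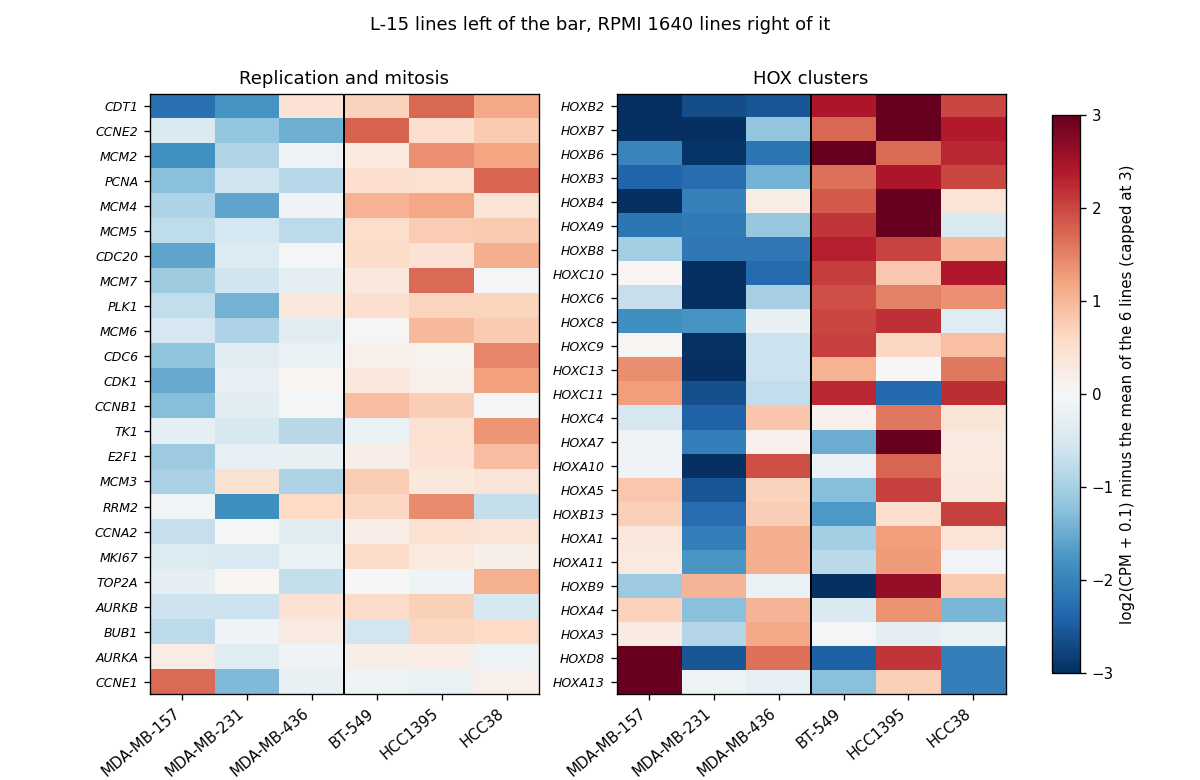
Each cell is log2(CPM + 0.1) of a gene in a line minus the mean of the 6 lines, capped at 3 in either direction, for the 24 replication and mitosis genes and the 25 HOX genes; L-15 lines stand left of the black bar and RPMI 1640 lines right of it. Rows are ordered by the mean of the 3 L-15 lines, lowest at the top; the L-15 side is mostly blue in the upper rows of both panels, with exceptions such as CDT1 and HOXB4 in MDA-MB-436, which lie above the mean and still below every RPMI line.

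Several biosynthetic lists leaned the same way. Over all genes 7.64% were apart and lower, or 4.33% with TMM from genes at 5 CPM. Of 12 serine and one-carbon genes, 6 were apart and lower (50%) and 0 apart and higher. Their median log2 fold change was -0.71, and -1.16 without MDA-MB-436. MTHFD1, a trifunctional folate enzyme, stood at 74.3, 137 and 115 CPM in the L-15 lines, against 415, 321 and 194 CPM in the RPMI lines. SHMT1, SHMT2, TYMS and PSPH were also apart and lower, and TYMS is an S phase gene too. With TMM from genes at 5 CPM, 3 of the 12 were apart and lower. Of 22 cholesterol synthesis genes 5 were apart and lower (22.7%, median -0.61). Among them HMGCS1, which makes HMG-CoA, stood at 98.3, 69.1 and 76.5 CPM in the L-15 lines. It stood at 166, 167 and 155 CPM in the RPMI lines.

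Of 21 ribosome biogenesis genes 5 were apart and lower (23.8%, against 7.64% of all genes), with a median of -0.42 that was -0.28 without MDA-MB-157 and -0.76 without MDA-MB-436. RRS1, a chromosome 8 gene for 60S assembly, stood at 9.03, 4.99 and 10.2 CPM in the L-15 lines, against 62.6, 52.0 and 17.5 CPM in the RPMI lines, and was the only one of the list that DESeq2 called. NOP56, a core protein of box C/D snoRNPs, stood at 129, 203 and 213 CPM in the L-15 lines, against 429, 470.2 and 1753 CPM in the RPMI lines. Of 12 heat shock genes 4 were apart and lower (33.3%, against 7.64% of all genes, median -0.63). HSP90AA1, the inducible HSP90, stood at 2764, 3029 and 1586 CPM in the L-15 lines, against 7261, 7543 and 5072 CPM in the RPMI lines. MYC itself overlapped, at 34.7, 201 and 98.7 CPM in the L-15 lines against 135, 115 and 98.8 CPM in the RPMI lines. With TMM from genes at 5 CPM, 1 heat shock gene was apart and lower and 1 apart and higher. Under that scaling 4 ribosome biogenesis genes and 3 cholesterol synthesis genes were apart and lower, against 4.33% of all genes.

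**Figure D4:**
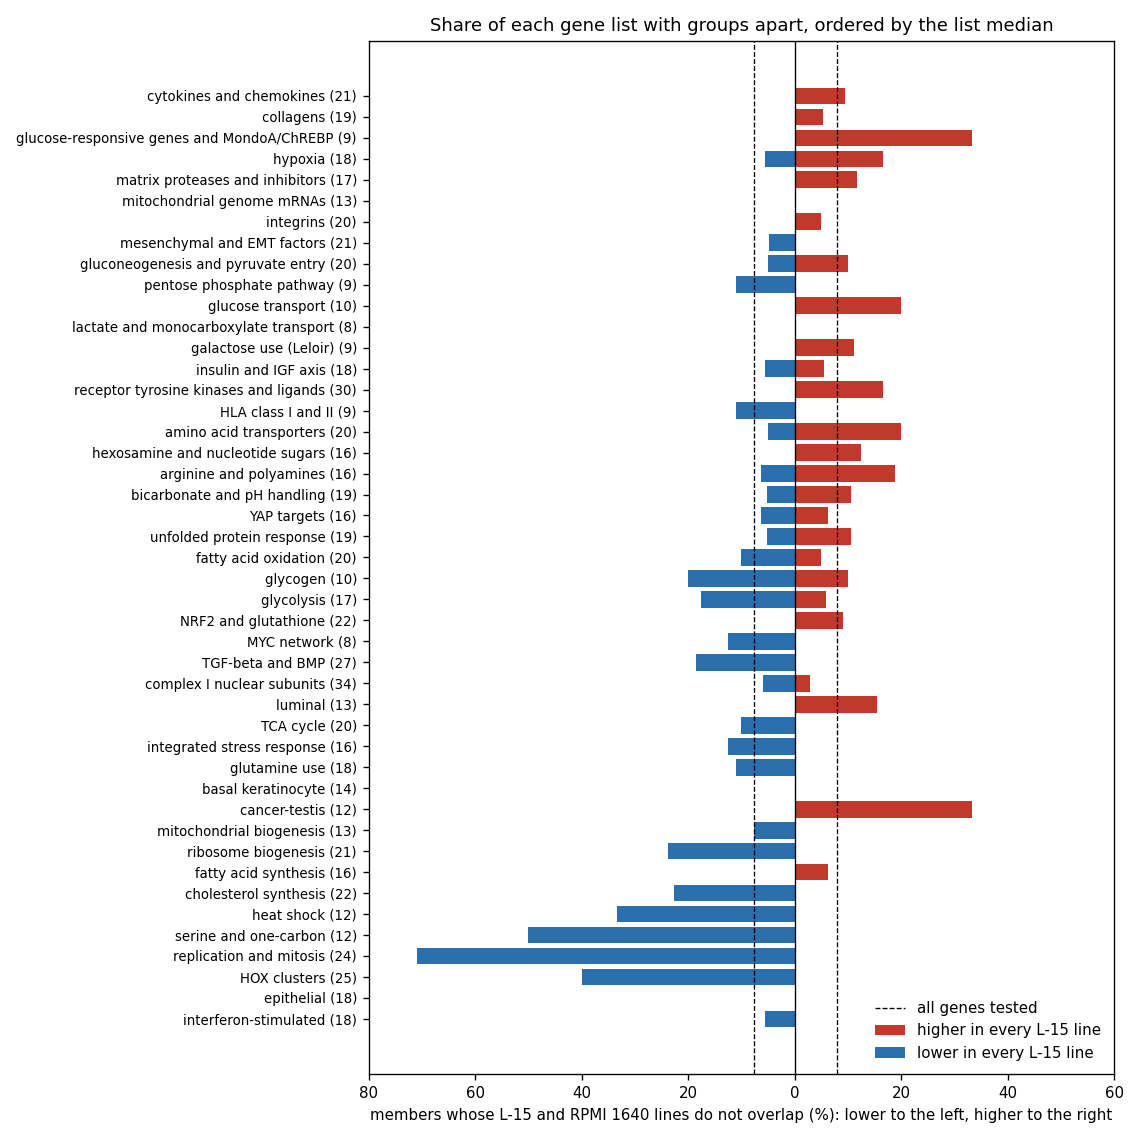
Bars give the percentage of tested members of each list (number in brackets, lists with at least 8) that were apart and lower in the L-15 lines (blue, leftward) or apart and higher (red, rightward); dashed lines mark all 20537 genes, 7.64% lower and 7.96% higher. Lists are ordered by their median log2 fold change; replication and mitosis reaches 70.8% on the lower side, and the glucose-responsive and cancer-testis lists reach 33.3% on the higher side.

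Of 30 receptor tyrosine kinase and ligand genes, 5 were apart and higher (16.7%, against 7.96% of all genes) and 0 apart and lower. Their median was 0.25, and -0.35 without MDA-MB-231. Scaled by TMM from genes at 5 CPM, 6 of the 30 were apart and higher, against 12.2% of all genes. PDGFA, a platelet-derived growth factor chain, stood at 50.9, 32.2 and 61.1 CPM in the L-15 lines, against 0.235, 4.22 and 8.41 CPM in the RPMI lines. PDGFRB, a receptor for this family of factors, stood at 141, 6.69 and 0.933 CPM in the L-15 lines, against 0.564, 0.355 and 0.306 CPM in the RPMI lines, so MDA-MB-157 accounts for most of its difference. HBEGF, an EGF receptor ligand, stood at 29.9, 47.2 and 17.97 CPM in the L-15 lines, against 10.8, 13.05 and 12.1 CPM in the RPMI lines. KIT and HGF were the other 2, and both were highest in MDA-MB-157. TIMP1, the inhibitor of matrix metalloproteinases, stood at 112, 55.9 and 157 CPM in the L-15 lines, against 26.2, 35.1 and 6.21 CPM in the RPMI lines. Of 17 matrix protease and inhibitor genes, 2 were apart and higher, TIMP1 among them (11.8%, against 7.96% of all genes). With TMM from genes at 5 CPM the count was 4, against 12.2% of all genes.

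Cytokine genes had a median log2 fold change of 1.95 over 21 tested, yet only 2 were apart and higher (9.52%, against 7.96% of all genes). IL1B, the inflammatory interleukin-1 beta, stood at 0.528, 8.58 and 747 CPM in the L-15 lines, against 0.376, 0.355 and 0.153 CPM in the RPMI lines. In single libraries IL1B overlapped, at 0.390 to 0.650 CPM in MDA-MB-157 and 0 to 1.02 CPM in BT-549. Without MDA-MB-436 the median of the list was 0.46. CSF1, the macrophage growth factor, stood at 23.0, 37.5 and 21.8 CPM in the L-15 lines, against 14.8, 1.73 and 9.42 CPM in the RPMI lines. Collagen genes had a median of 1.94, and 0.17 without MDA-MB-157. Of 19 collagen genes 1, COL7A1, was apart and higher (5.26%, against 7.96% of all genes). Of 18 hypoxia genes, NDRG1, ADM and MXI1 were apart and higher and EGLN2 apart and lower (16.7% and 5.56%, against 7.96% and 7.64% of all genes). The median was 0.76, and it was 0.32 without MDA-MB-157 and 0.34 without HCC1395. Under TMM from genes at 5 CPM, 5 were apart and higher and 0 apart and lower, against 12.2% and 4.33% of all genes. ADM, the vasodilator adrenomedullin, stood at 111, 167 and 53.0 CPM in the L-15 lines, against 28.2, 16.0 and 17.3 CPM in the RPMI lines. SAT1, the catabolic enzyme of polyamines on chromosome X, stood at 388, 842 and 432 CPM in the L-15 lines, against 153, 71.7 and 112 CPM in the RPMI lines.

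Of 12 cancer-testis genes tested 4 were apart and higher (33.3%, against 7.96% of all genes). With TMM from genes at 5 CPM the count was also 4, against 12.2% of all genes. The median of the list was -0.29 and ran from -2.43 without MDA-MB-436 to 2.99 without HCC1395. Among the 4 was MAGEC2, at 22.6, 0.694 and 23.8 CPM in the L-15 lines against 0.188, 0 and 0 CPM in the RPMI lines. The interferon list had a median of -1.87, and -0.50 without BT-549. Of its 18 genes 1, OAS3, was apart and lower (5.56%, against 7.64% of all genes). Markers of other cell types were low in most lines. The summed CPM of the 4 tested endothelial markers, as the mean of the libraries of a line, was 11.9 to 27.4 in the L-15 lines and 1.93 to 6.71 in the RPMI lines. Of the 4, 3 were apart and higher (75%, against 7.96% of all genes). The 5 fibroblast markers summed to 10.8 to 1706 CPM in the L-15 lines and 4.18 to 83.0 CPM in the RPMI lines, with COL3A1 and LUM in MDA-MB-157 behind the upper value. Of the 6 blood markers 2 were tested, and PTPRC stood at 2.58, 2.27 and 2.504 CPM in the L-15 lines, against 1.79, 0.710 and 1.17 CPM in the RPMI lines. The other, CD14, overlapped. Its library means were 27.3, 0.393 and 1.11 CPM in the L-15 lines, against 0.5035, 0.036 and 1.515 CPM in the RPMI lines. Of 6 mesothelial markers, of interest for lines from effusions, MSLN and WT1 were tested, and both overlapped. MSLN stood at 0, 13.4 and 6.38 CPM in the L-15 lines, against 0.847, 0.0888 and 0.102 CPM in the RPMI lines. WT1 had library means of 6.89, 1.80 and 2.99 CPM in the L-15 lines, against 0.588, 5.46 and 2.255 CPM in the RPMI lines. The part of such markers in the other differences was not tested.

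The same media can be compared in 7 lines outside basal B, MDA-MB-453 and MDA-MB-468 in L-15 and HCC1143, HCC1187, HCC1806, HCC1937 and HCC70 in RPMI 1640. The interaction test asked whether the log2 fold change of L-15 over RPMI differed between the sets, and of 25684 genes 0 were more positive and 0 more negative in basal B by edgeR, with 688 and 485 at an unadjusted p under 0.05. Without MDA-MB-453, a luminal line, 2 genes were more positive in basal B, GLYR1 (adjusted p = 0.0375, edgeR) and its neighbour UBN1 (adjusted p = 0.0138, edgeR), which were picked out after their values had been seen. MDA-MB-468 is then the only L-15 line outside basal B, and the fit assumes that this lone line varies like the lines of the other groups. In the 7 lines alone, edgeR called AL512599.1 higher and FABP5 lower in L-15 (0.00389% of genes in each direction, adjusted p = 0.0467 for both).

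The 30 genes named first behaved unevenly in the other lines. Of the 15 higher genes 4 had the same sign and 1, CXorf38, was apart the same way, at 35.3 and 47.5 CPM in MDA-MB-453 and MDA-MB-468 against 3.62 to 27.5 CPM in the 5 RPMI lines. Of the 15 lower genes 14 had the same sign and 4 were apart the same way, FABP5, OTUD6B, POP1 and AC009902.2, all on chromosome 8. Over all genes the median log2 fold change in the other lines was -0.096, and 4.37% were apart and lower there. The share of all genes with each sign was not counted. AC009902.2 overlaps FABP5 and may share its reads, so AC009902.2 and FABP5 are not separate loci. The 15 lower genes also hold neighbouring HOXB genes and 6 genes of chromosome 8, so their signs are not 15 separate observations. FABP5 stood at 0.759 and 0.732 CPM in the 2 L-15 lines outside basal B, against 62.9 to 360 CPM in the 5 RPMI lines. Its log2 fold change was -8.11 ± 1.08 (SE) there and -2.83 ± 0.54 (SE) in basal B. Over all genes, 117 of the 1634 apart and higher in basal B (7.16%) were apart the same way in the other lines and 29 (1.77%) the opposite way, beside 4.07% of all genes apart and higher there. Of the 1569 apart and lower, 178 (11.3%) were apart the same way and 18 (1.15%) the opposite way, beside 4.37% of all genes. The replication list had a median of -0.70 there, with 3 of 24 genes apart and lower. TXNIP had a log2 fold change of 1.65 ± 1.61 (SE) there, and MDA-MB-453 showed 578 CPM while MDA-MB-468 showed 0.732 CPM, against 5.97 to 203 CPM in the 5 RPMI lines. ARRDC4 was likewise high in MDA-MB-453, at 66.2 CPM, and low in MDA-MB-468, at 0.627 CPM, against 0.716 to 23.2 CPM in the 5 RPMI lines. The L-15 lines outside basal B thus lay on both sides of the RPMI lines for TXNIP and ARRDC4. The HOX list had a median of -0.03 there. Other lists differed in whether they kept their direction. The cytokine, collagen and receptor tyrosine kinase lists, with positive medians in basal B, had medians of -1.95, -1.07 and -1.24 there. The heat shock, interferon and ribosome biogenesis lists, with negative medians in basal B, had medians of -0.81, -2.61 and -0.73 there.

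**Figure D5:**
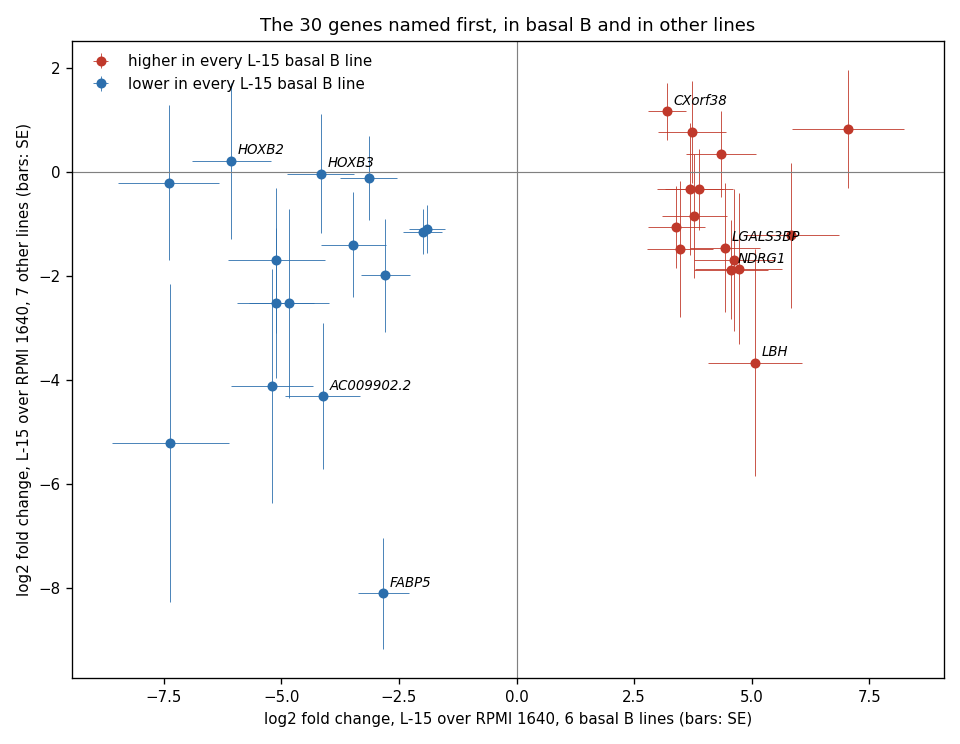
Log2 fold change of L-15 over RPMI 1640 in the 6 basal B lines (x axis) and in 7 other lines (y axis) with SE bars, for the 15 genes apart and higher (red) and the 15 apart and lower (blue) in basal B. CXorf38 lies above 0 on both axes, FABP5 lies at -2.83 and -8.11, and 11 of the 15 red points lie below 0 on the y axis.

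Hs578T, the remaining basal B line of the series, was grown in DMEM, a glucose medium, so for it medium and class can be set side by side with the 6 lines. On a scale fitted to the 7 lines together, its level lay on the L-15 side, at or beyond the nearest L-15 line, for 60.1% of the 1593 genes apart and higher, between the sides for 15.1% and on the RPMI side for 24.7%. For the 1566 genes apart and lower these shares were 49.0%, 23.3% and 27.7%. Of the 15 named higher genes 9 lay on the L-15 side and 6 between, and of the 15 named lower genes 4 and 11, with 0 on the RPMI side in either case. NDRG1 reached 216 CPM in Hs578T and HOXB2 1.04 CPM, while TXNIP stood at 92.0 CPM, ARRDC4 at 7.74 CPM and CXorf38 at 19.0 CPM. For TXNIP and CXorf38 that is close to the highest RPMI line, and for ARRDC4 it is within the range of the RPMI lines.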

How the data were processed

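The authors deposited a table of whole-number counts per gene for each library, and its columns were matched to the labels by title. Per the labels' protocols, total RNA was depleted of ribosomal RNA with Ribo-Zero Gold and made into ScriptSeq v2 libraries. The submitters' processing notes name bcl2fastq 2.20.0.422, FastQC, MultiQC, Trimmomatic, STAR, featureCounts and genome build GRCh38.p12. The annotation release, the strand setting and the treatment of reads with several matches remain not given in the sources used here, so antisense partners and near-identical copies may share reads. Gene types and coordinates came from GENCODE 29, which matched 58275 of 64485 genes (90.4%).

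Counts of the 3 libraries of a line were summed and tested with edgeR 4.0.16 (R 4.3.3; TMM, filterByExpr with a minimum count of 10, quasi-likelihood test, two-sided, Benjamini-Hochberg adjusted p under 0.05 and at least 1 log2 unit). DESeq2 1.42.0 and limma 3.58.1 gave alternatives, and the scripts were tested on simulated data. Promoters came from RefSeq.

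The libraries of a number share a sequencing run within a set of runs, per the labels. Deviations from the line means correlated with a median r of 0.130 (-0.085 to 0.320) over 21 library pairs that shared number and run set. Over 42 pairs of the same run set with other numbers the median r was -0.0746. Libraries 1 and 3 of HCC38 and of MDA-MB-231 were all read in run 1, so some of these pairs also shared a run. The replicate number used as a block is therefore not the same as the run. Deviations within a line sum to 0 for each gene, so these medians are not independent of each other.

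The members and lists were chosen with earlier results of these data known. Named by rule were the 15 genes a direction with the smallest p among those apart, 3 genes a list with the smallest p, 19 fixed genes and 5 a direction with the smallest p for the difference between the sets of lines. The members of the lists given here only by their symbol or as further examples (among them CCNB1, MKI67, CCNE1, CSF1, HBEGF, HOXA9, MLX and RAN) were chosen after their values had been seen. PCK2, on that fixed list, was not among the genes tested, and its level was not examined. Some named genes are not reported here.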

Additional observations from a re-analysis of the deposited data

Results flagged for a closer look

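NRP2, a co-receptor of semaphorins and VEGF, was apart in opposite directions in the 2 sets of lines. It stood at 25.1, 26.7 and 15.6 CPM in MDA-MB-157, MDA-MB-231 and MDA-MB-436, against 4.51, 1.64 and 2.39 CPM in BT-549, HCC1395 and HCC38, a log2 fold change of 2.97 ± 0.66 (SE). Outside basal B it stood at 2.43 and 7.42 CPM in MDA-MB-453 and MDA-MB-468, against 49.8, 11.5, 11.9, 70.2 and 23.0 CPM in HCC1143, HCC1187, HCC1806, HCC1937 and HCC70, a log2 fold change of -2.76 ± 0.90 (SE). The difference between the sets was 5.68 ± 1.23 (SE) on the log2 scale, and edgeR's test of that difference did not pass after Benjamini-Hochberg adjustment over all genes.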

How the results depend on the processing

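With 3 lines a side, a common coefficient of variation of 0.665 and 4308892 to 10206100 counts a library, edgeR called 0 genes in each direction, with 885 higher and 840 lower at an unadjusted p under 0.05. The count was also 0 with limma-voom, with both other scalings, with a filter of 1 CPM, with shared spread over 13 lines, with each line or replicate number left out, with run set as covariate, in runs 3 to 5, without the insulin lines, with Hs578T and without a fold minimum. DESeq2 called 127 higher and 93 lower genes, edgeR without a filter 66 and 59, the 18-library limma-voom fit with the replicate block 3 and 0, and that fit with no replicate block 14 and 20. Without MDA-MB-453, 2 genes had a more positive difference in basal B than in the other lines, against 0 with it, and the lone L-15 line left outside basal B is assumed to vary like the other groups. The cause was not tested. Of 191 genes that the naming rule gave, with 4055 values under alternatives, 78 values in 30 genes had the other sign, and 0 of these were among the 30 genes with the smallest p, 15 a direction. Their log2 fold changes were these. In the lines of runs 3 to 5, IGFBP5 was at 1.73, CDH1 at 0.84, GRHL2 at 0.39, DSG3 at 0.82, KRT5 at 0.53, GALT at -0.17, IGF1R at 0.17 and IRS1 at -0.37. Under the replicate block, IGFBP5 was at 0.11, ASNS at 0.34, IRS1 at -0.092 and VIM at 0.31. In the lines without added insulin, MXD1 was at -0.012, COL1A2 at 0.51, HSPA5 at 0.16, MYC at 0.17, VIM at 0.26 and RAB32 at 0.092. With Hs578T added to the RPMI side, FN1 was at -0.33, COL7A1 at -1.99, ITGA11 at -1.80, SSX1 at -1.48, PAGE5 at -1.17, PDGFRA at -1.96, DCN at -1.07, IGF1R at 0.011, MYC at 0.11 and KIAA1324 at -0.41. With limma-voom, MT1E was at 0.43, ASNS at 0.086 and VIM at 0.19. Under the 18-library fit with no replicate block, MT1E was at 1.85, ASNS at 0.12, HSPA5 at 0.011, IRS1 at -0.028 and VIM at 0.37. With TMM from genes at 5 CPM, ASNS was at 0.039, HSPA5 at 0.032, IGF1R at 0.089, MYC at 0.15 and VIM at 0.15. With a filter of 1 CPM, MYC was at 0.027. With run set as covariate, VIM was at 0.18. Without a filter, KIAA1324 was at -0.057. As each line or replicate number was left out, SLC16A3 ranged from -0.55 to 1.36, IGFBP5 from -5.87 to 1.36, CDH1 from -6.77 to 0.71, GRHL2 from -5.64 to 0.23, DSG3 from -7.32 to 0.93, KRT5 from -4.12 to 0.019, COL1A2 from -5.35 to 0.18, ANKRD1 from -0.55 to 9.43, MT1E from -3.61 to 1.14, MT2A from -1.72 to 0.021, CD14 from -0.00045 to 4.93, WT1 from -0.34 to 1.42, SLC2A1 from -0.73 to 2.05, GALT from -0.013 to 0.60, ASNS from -0.72 to 0.73, HSPA5 from -0.42 to 0.12, IGF1R from -0.93 to 0.12, IRS1 from -0.23 to 0.44, MYC from -0.84 to 0.34, VIM from -0.61 to 0.23, RAB32 from -0.61 to 0.27 and KIAA1324 from -0.41 to 0.59.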

Other observations

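Some stretches of chromosomes had many genes apart in 1 direction. In 153 windows of 20 Mb with at least 20 protein-coding genes, chosen as a view after the values of single genes had been seen and given with no test, the median log2 fold change was above 0 in 64 and below 0 in 89, and beyond 0.5 in either direction in 25. Over all protein-coding genes the median was -0.07, with 8.81% apart and lower and 6.91% apart and higher. The windows named here were picked from the ends of the ranking by median, and other scalings were not tried on them. On chromosome 8, 28 of 81 genes (34.6%) between 80000001 and 100000000 were apart and lower in the L-15 lines, with a median of -0.91. The adjoining window of chromosome 8 from 60000001 to 80000000 had a median of -0.97 and 16 of 63 genes (25.4%) apart and lower. The lines did not share this evenly. Relative to the 6-line mean, the median log2 level of the window from 80000001 lay at 0.21, -0.48 and -1.12 in MDA-MB-157, MDA-MB-231 and MDA-MB-436, against 0.44, 0.54 and 0.52 in BT-549, HCC1395 and HCC38. FABP5, OTUD6B, LRRCC1 and POP1 lie in this window.

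On chromosome 16, 43 of 133 genes (32.3%) between 60000001 and 80000000 were apart and lower, with a median of -0.67. Of 7 windows of chromosome X, 4 had a median above 0 and 3 a median below 0. The first window, from 1 to 20000000, had a median of 1.18 with 17 of 65 genes (26.2%) apart and higher, and the window from 40000001 to 60000000, which holds CXorf38, had a median of 0.59 with 28 of 115 genes (24.3%) apart and higher. Copy number was not measured in the files used here, and its part in these values was not tested.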
